A study of Mus musculus with 16 samples.

Results

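The genes described here were p53 itself (Trp53) and 7 genes whose products act back on p53, namely Mdm2, Mdm4, Rchy1, Ppm1d, Ccng1, Usp7 and Trp53inp1. They were taken by name from the 22375 genes of the RNA-Seq count tables, all 8 were found, and all 8 had enough reads to enter the test across 15758 genes. RNA depleted of ribosomal RNA came from mouse embryonic stem (ES) cells of strain 129/OLA in 4 groups. Wild-type (WT) cells were the E14Tg2a line, and the mutant cells were Cfp1-/-, lacking the CXXC finger protein that brings the Set1 histone methyltransferase to promoters. Each genotype was left untreated or given doxorubicin at 1 µM for 6 hours, a topoisomerase poison that breaks DNA. Each genotype is a single named line, so an effect of the deletion and a difference between lines cannot be told apart. Cells were grown on gelatin with serum and LIF, each group had 2 biological replicates, and each replicate was sequenced in 2 technical runs that were summed (n = 2 per group).

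p53 is a transcription factor that is made continuously and degraded continuously in undamaged cells. DNA damage activates kinases that release p53 from its inhibitors, after which it binds its response element near target genes. Several of those targets encode proteins that switch p53 off again, forming negative feedback loops, while others sustain its activity. In ES cells the p53 response is known for lowering pluripotency genes as well as raising the classical targets. Mdm2 is the ubiquitin ligase that marks p53 for degradation, and Mdm4 is its relative, which binds p53 and pairs with Mdm2 but is a poor ligase by itself. Rchy1 (also called Pirh2) is another ubiquitin ligase of p53. Ppm1d (Wip1) is a phosphatase that removes damage-induced phosphates from p53 and its kinases. Ccng1 (cyclin G1) recruits a phosphatase to Mdm2. Usp7 (HAUSP) removes ubiquitin from both Mdm2 and p53. Trp53inp1 is a nuclear partner that promotes phosphorylation of p53 and is the activator among the 8.

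The p53 response element is a pair of adjacent 10-base half-sites, and the sequences closest to it are shown because they separate the members before any expression value is used. The region 2000 bases to either side of each gene's annotated 5′ end was searched in the NCBIM37 genome, the build of the count tables. Because the element reads the same on both strands, 1 scan covered both, and the half-sites were not allowed a spacer. The invariant C and G of each half-site had to be present. A match over all 20 positions with at most 1 mismatch was found for 0.617% of the 22375 genes, and among the members only for Ccng1. At most 3 mismatches were found for 17.3% of all genes and for 4 of the 8 members. The closest matches read as follows, 5′ to 3′ on the strand of the gene, with the 20 bases of the match in capitals and the middle of the match placed from the 5′ end of the gene.
Ccng1, chr11:40568924-40569023, minus strand, upstream at position -161, 1 mismatch: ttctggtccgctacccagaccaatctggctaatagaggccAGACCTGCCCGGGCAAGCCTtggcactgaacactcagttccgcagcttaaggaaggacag
Ccng1, chr11:40568398-40568497, minus strand, intronic at position 365, 1 mismatch: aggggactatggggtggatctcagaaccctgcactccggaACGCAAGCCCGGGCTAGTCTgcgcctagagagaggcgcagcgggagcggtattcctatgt
Mdm2, chr10:117147161-117147180, minus strand, in an annotated exon at position 643, 3 mismatches: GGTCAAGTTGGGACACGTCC
Trp53, chr11:69393746-69393845, plus strand, upstream at position -66, 3 mismatches: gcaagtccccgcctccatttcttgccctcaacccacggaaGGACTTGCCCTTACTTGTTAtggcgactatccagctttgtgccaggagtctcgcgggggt
Usp7, chr16:8791370-8791469, minus strand, intronic at position 981, 3 mismatches: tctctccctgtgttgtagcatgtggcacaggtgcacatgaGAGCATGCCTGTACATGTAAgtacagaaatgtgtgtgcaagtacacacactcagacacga
The best matches of Mdm4 and Ppm1d had 4 mismatches, a level reached by 47.7% of all genes, and those of Rchy1 and Trp53inp1 had 5. A match describes letters in this window only, and members with few mismatches include Usp7, which fell with doxorubicin, while Trp53inp1, with 5, rose.

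The depth and the labels were checked first. Summed counts per biological replicate ranged from 14880589 to 29422711. Cxxc1, which encodes Cfp1, had 1412, 1117, 616 and 829 counts in the WT libraries and 4, 3, 5 and 1 in the Cfp1-/- libraries. The 10 ES cell markers were all detected, and their summed normalized count lay between 97699 and 120130 in untreated WT cells and between 37444 and 46277 after doxorubicin, against 95448 to 96248 and 32770 to 40681 in Cfp1-/- cells. The 6 fibroblast markers summed to 226 to 257 and 115 to 126 in untreated WT and Cfp1-/- cells and to 411 to 569 and 402 to 546 after treatment, with Col3a1 at 0 in 1 untreated Cfp1-/- library and Postn at 0 in 1 untreated WT library. The 5 trophoblast markers, led by Krt8, summed to 765 to 2480 in WT and 165 to 334 in Cfp1-/- libraries. The 5 extraembryonic endoderm markers in the tables summed to at most 96.0, the 5 mesoderm markers to 160 to 575 with Mesp1 at 0 in both untreated WT and 1 untreated Cfp1-/- library, and the 4 neural markers in the tables to 1397 to 3403 with Neurog1 at 0 in both treated WT libraries and in 1 library each of untreated WT and treated Cfp1-/- cells. The part of these marker differences in the results below was not tested, and in bulk RNA fewer cells of a type and less RNA per cell cannot be told apart.

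Technical runs agreed within sampling noise in 6 of the 8 biological replicates, their chi-square statistic divided by its degrees of freedom being 0.992 to 1.06. The runs of treated WT replicate 1 gave 10.6 and those of treated Cfp1-/- replicate 1 gave 47.7. In the latter, 439 genes with at least 200 counts in the first run had 0 in the second. All of them were on chromosomes 19, X and Y, where no member lies. Without these chromosomes the statistic was still 17.3 over 10400 genes, so the disagreement extended to the chromosomes that were left. The members differed between those 2 runs by up to 0.46 on the log2 scale after division by each run's total. Leaving out the second run of both replicates changed none of the 40 member calls, and the log2 fold change that moved most, that of Trp53inp1 in Cfp1-/- cells, moved by 0.087.

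Doxorubicin raised most of the negative regulators of p53 in WT cells, while the p53 transcript itself did not pass the test there. In WT cells 6 of the 8 members rose (26.5% of all genes tested did) and 1 fell (21.8% of all genes), at an adjusted p under 0.05 (quasi-likelihood test of edgeR, Benjamini-Hochberg over the 15758 genes). With the study's own limits, which add a 2.5-fold change and 200 normalized counts on average over the 4 libraries compared to the same adjusted p, 4 members rose (5.10% of all genes) and 0 fell (2.80%). In Cfp1-/- cells 5 members rose (27.8% of all genes) and 2 fell (21.0%), and at the study's limits 3 rose (5.38%) and 0 fell (2.23%). Those 3 were Mdm2, Trp53inp1 and Ppm1d, the last at a fold change of 2.51. Only Mdm2 remained at these limits without treated Cfp1-/- replicate 1. The members that fell did so by less than 2.5-fold, and at any fold the members that fell were Usp7 in both genotypes and Trp53 in Cfp1-/- cells. The median log2 fold change of the 8 members was 1.08 in WT and 0.83 in Cfp1-/- cells, against 0.06 and 0.01 over all genes.

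**Figure D1:**
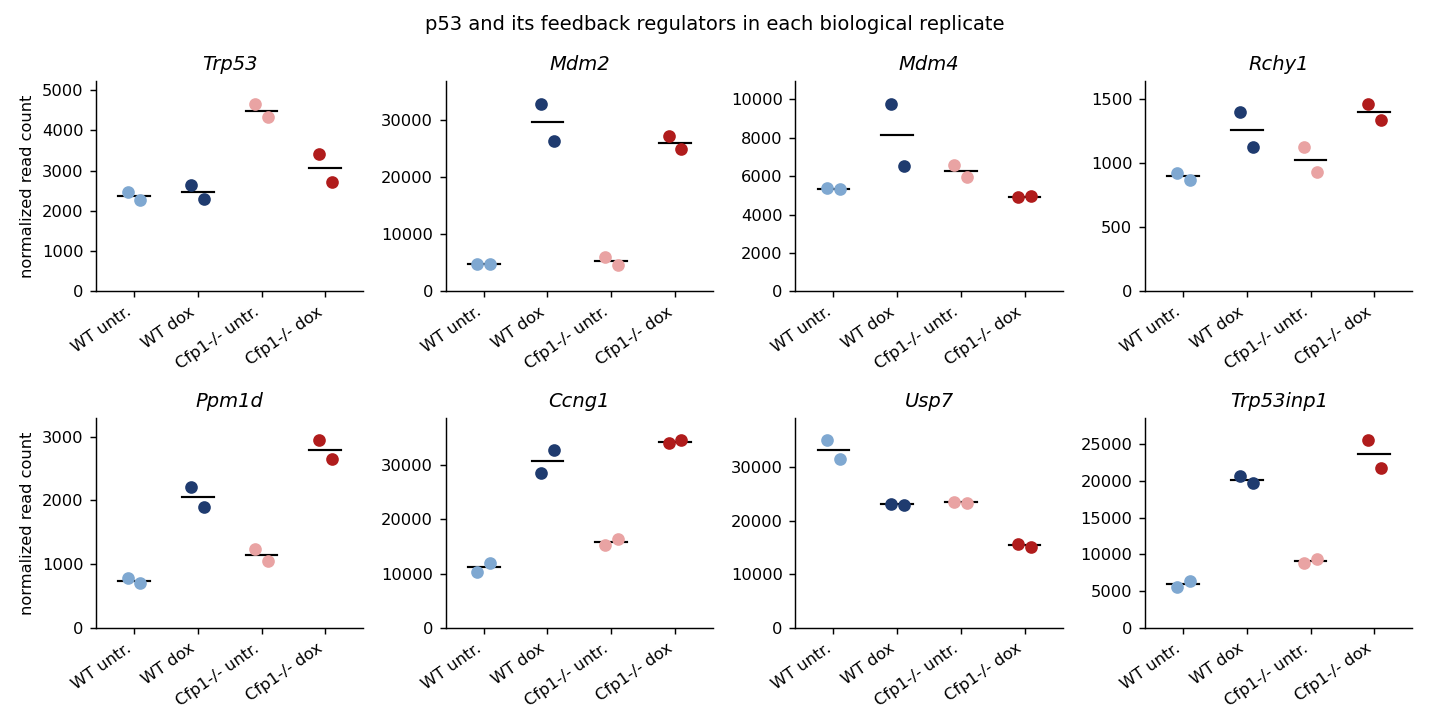
Normalized read count of each member in every biological replicate (points) with the group mean (line), on linear axes that start at 0, for untreated and doxorubicin-treated WT and Cfp1-/- ES cells. Mdm2, Rchy1, Ppm1d, Ccng1 and Trp53inp1 are higher in treated than in untreated libraries without overlap in both genotypes, and Usp7 goes down in both. Trp53 is highest in untreated Cfp1-/- cells at 4324 and 4669, and Mdm4 is highest in treated WT cells at 6553 and 9788.

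Trp53 (ENSMUSG00000059552, NCBIM37 chr11:69393861-69405375, plus strand) encodes p53. Its normalized read counts were 2473 and 2283 in untreated WT cells, 2636 and 2286 in treated WT cells, 4669 and 4324 in untreated Cfp1-/- cells and 3408 and 2719 in treated Cfp1-/- cells. The WT groups overlapped, and both Cfp1-/- groups lay above both WT groups. In WT cells the log2 fold change with doxorubicin was 0.10 (SE 0.148, 95% interval -0.24 to 0.43, adjusted p = 0.626, edgeR). In Cfp1-/- cells Trp53 fell by 0.51 on the log2 scale (SE 0.148, adjusted p = 0.0173). That call was lost under 3 alternatives, namely without untreated replicate 1 (log2 fold change -0.46, adjusted p = 0.0731) or treated replicate 2 (-0.35, adjusted p = 0.133) of the Cfp1-/- cells and under total count scaling (-0.30, adjusted p = 0.112), with adjusted p from 0.000551 to 0.133 over 18 alternatives. Total count scaling moved the median of all genes up by 0.31 in WT and 0.21 in Cfp1-/- cells. Under it the WT value of Trp53 was 0.41 and was called (adjusted p = 0.0368, against a range up to 0.959 over 18 alternatives), so that both Trp53 response calls depended on the scaling. Relative to the median gene these values were 0.04 in WT and -0.53 in Cfp1-/- cells.

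The difference between genotypes was clearest for Trp53 before treatment. Untreated Cfp1-/- cells held 1.93-fold more Trp53 transcript than untreated WT cells in the edgeR fit (log2 difference 0.95, SE 0.149, adjusted p = 0.00159). The deposited normalized counts, which are scaled otherwise than in that fit, were 4496 ± 244 against 2378 ± 134 (SD, n = 2). The call held in all 18 alternatives, with an adjusted p of at most 0.0152. Among the 15758 genes this log2 difference ranked 2702 from the highest (17.1%), and 17.9% of all genes were called higher in untreated Cfp1-/- cells. After treatment the groups did not overlap either, but the log2 difference of 0.34 did not pass the test (adjusted p = 0.118, edgeR). With the replicate number as a block it did (0.34, adjusted p = 0.0359), and the adjusted p ranged from 0.0268 to 0.56 over 18 alternatives.

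Mdm2 (ENSMUSG00000020184, chr10:117125944-117147814, minus strand) was the member that doxorubicin raised most. Its counts went from 4692 and 4794 to 32818 and 26307 in WT cells and from 5962 and 4524 to 27092 and 24881 in Cfp1-/- cells. Treated and untreated libraries were far apart in both genotypes, while the genotypes overlapped at either state. The rise was 6.43-fold in WT cells (log2 fold change 2.69, SE 0.177, adjusted p = 6.1e-06) and 5.10-fold in Cfp1-/- cells (2.35, SE 0.174, adjusted p = 1.23e-05). Mdm2 ranked 1329 from the highest log2 fold change among the 15758 genes in WT cells. Neither the untreated difference between genotypes (0.17, 95% interval -0.20 to 0.55) nor the treated one (-0.16, -0.53 to 0.21) passed the test.

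Mdm4 (ENSMUSG00000054387, chr1:134886422-134921943, minus strand), the relative of Mdm2, moved apart between the genotypes. Its counts were 5372 and 5319 in untreated WT cells and 9788 and 6553 in treated WT cells. The Cfp1-/- counts were 6575 and 5983 untreated and 4899 and 4975 treated. Both treated WT libraries lay above both untreated ones, with a wide gap between the treated replicates, whereas both treated Cfp1-/- libraries lay below the untreated ones. The WT rise was 1.58-fold (log2 fold change 0.66, SE 0.175, adjusted p = 0.0118). It was lost without treated WT replicate 1 (0.34, adjusted p = 0.101) or untreated WT replicate 2 (0.635, adjusted p = 0.0569), and the adjusted p ranged from 0.00107 to 0.101 over 18 alternatives. The Cfp1-/- change of -0.30 (SE 0.175, 95% interval -0.70 to 0.09, adjusted p = 0.178) did not pass.

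Rchy1 (ENSMUSG00000029397, chr5:92377930-92392094, minus strand) rose in both genotypes, by less than Mdm2. Its counts were 928 and 871.5 in untreated and 1402 and 1124 in treated WT cells, and 1124 and 929.6 in untreated and 1467 and 1338 in treated Cfp1-/- cells. Treated libraries were higher without overlap in each genotype. The rise was 1.45-fold in WT cells (log2 fold change 0.53, SE 0.163, adjusted p = 0.022) and 1.41-fold in Cfp1-/- cells (0.49, SE 0.162, adjusted p = 0.0303). The WT call was lost without either untreated WT library (0.58 and 0.47) or without treated WT replicate 1 (0.36, adjusted p = 0.153). The Cfp1-/- call was lost without any of 5 libraries, namely both untreated WT libraries (0.44 without either), untreated Cfp1-/- replicate 2 (0.35, adjusted p = 0.201) and both treated Cfp1-/- libraries (0.40 and 0.56). Genotypes did not differ past the test at either state (0.22 untreated and 0.18 treated).

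Both members of the phosphatase branch rose in both genotypes. Ppm1d (ENSMUSG00000020525, chr11:85124746-85160568, plus strand) had counts of 791 and 698 in untreated and 2206 and 1896 in treated WT cells. The Cfp1-/- counts were 1240.4 and 1057 untreated and 2944 and 2647 treated. All 4 groups were separate, in the order untreated WT, untreated Cfp1-/-, treated WT and treated Cfp1-/-. The rise was 2.84-fold in WT cells (log2 fold change 1.51, SE 0.153, adjusted p = 5.38e-05) and 2.51-fold in Cfp1-/- cells (1.33, SE 0.151, adjusted p = 0.000111).

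Cfp1-/- cells carried more Ppm1d at both states. The log2 difference was 0.65 untreated (SE 0.151, adjusted p = 0.00942) and 0.47 treated (SE 0.149, adjusted p = 0.0431). The untreated call was lost without untreated WT replicate 2 or untreated Cfp1-/- replicate 1 (0.56 and 0.55). The treated call was lost when any 1 of 7 libraries was left out, all but untreated Cfp1-/- replicate 1, with values from 0.36 to 0.58, and when only the treated groups were fitted (0.45, adjusted p = 0.0602). Its adjusted p ranged from 0.00447 to 0.213 over 18 alternatives.

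Ccng1 (ENSMUSG00000020326, chr11:40562054-40568813, minus strand), the member with the closest match to the p53 element, was also the most abundant per kb of exon after treatment. Its counts were 10371 and 12007 in untreated and 28511 and 32771 in treated WT cells, and 15216 and 16411 in untreated and 34048 and 34514 in treated Cfp1-/- cells. The groups did not overlap. The rise was 2.83-fold in WT cells (log2 fold change 1.5, SE 0.135, adjusted p = 2.77e-05) and 2.23-fold in Cfp1-/- cells (1.16, SE 0.134, adjusted p = 0.000116). Untreated Cfp1-/- cells exceeded untreated WT cells by 0.53 (SE 0.132, adjusted p = 0.0135), a call lost without untreated WT replicate 1 (0.44) or untreated Cfp1-/- replicate 2 (0.48). The treated difference of 0.19 (95% interval -0.11 to 0.48) did not pass.

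Usp7 (ENSMUSG00000022710, chr16:8688815-8792401, minus strand) was the member that fell in both genotypes. Its counts were 35069.7 and 31508 in untreated and 23200.1 and 23051 in treated WT cells. The Cfp1-/- counts were 23569 and 23416 untreated and 15666 and 15224 treated. Untreated Cfp1-/- libraries thus stood beside the treated WT libraries, a little above them, and treated Cfp1-/- libraries below all others. Usp7 fell by 0.48 on the log2 scale in WT cells (SE 0.119, adjusted p = 0.00831) and by 0.56 in Cfp1-/- cells (SE 0.119, adjusted p = 0.00365). Total count scaling ended the WT call (-0.17, adjusted p = 0.268, which is -0.54 relative to the median gene), as did leaving out untreated WT replicate 1 (-0.40, adjusted p = 0.0782). The exons of Usp7 overlap an annotated miRNA gene on the opposite strand, and the libraries were strand-specific.

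Usp7 was also lower in Cfp1-/- cells at both states. The log2 difference was -0.47 untreated (SE 0.119, adjusted p = 0.0134) and -0.56 treated (SE 0.119, adjusted p = 0.00937). The untreated call was lost under total count scaling (-0.28, adjusted p = 0.0873), without untreated WT replicate 1 (-0.38) and without either untreated Cfp1-/- library (-0.46 for both). The treated call was lost without treated Cfp1-/- replicate 2 (-0.53, adjusted p = 0.054).

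Trp53inp1 (ENSMUSG00000028211, chr4:11083578-11101526, plus strand), the activator of p53, was the member raised most after Mdm2. Its counts were 5513 and 6383 in untreated and 20634 and 19755 in treated WT cells, and 8851 and 9398 in untreated and 25528 and 21802 in treated Cfp1-/- cells. All 4 groups were separate and stood in the same order as for Ppm1d. The rise was 3.51-fold in WT cells (log2 fold change 1.81, SE 0.139, adjusted p = 1.27e-05) and 2.67-fold in Cfp1-/- cells (1.42, SE 0.137, adjusted p = 4.44e-05). Untreated Cfp1-/- cells held more of it (log2 difference 0.65, SE 0.135, adjusted p = 0.00596), a call just lost without untreated WT replicate 1 (0.56, adjusted p = 0.0501). The treated difference of 0.25 (95% interval -0.05 to 0.56) did not pass.

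**Figure D2:**
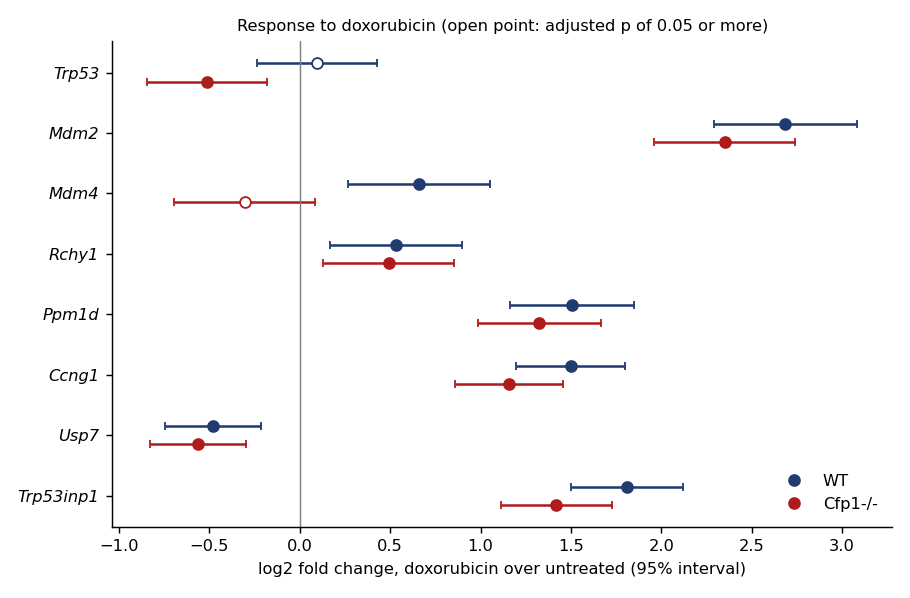
Log2 fold change of each member with doxorubicin in WT (blue) and Cfp1-/- cells (red), with 95% intervals from the edgeR fit, filled where the adjusted p was under 0.05. Mdm2 lies farthest to the right at 2.69 and 2.35, Usp7 lies left of 0 in both genotypes, and Trp53 and Mdm4 are the members whose points fall on opposite sides of 0.

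Levels of different members were compared per kilobase of annotated exon, on which scale the order of the transcripts changed with doxorubicin. In untreated WT cells Usp7 was highest at 3849 ± 291 normalized counts per kb, followed by Ccng1 at 3186 ± 329, Mdm4 at 1522 ± 10.7, Mdm2 at 936 ± 14.2, Trp53inp1 at 919 ± 95.03, Trp53 at 588 ± 33.2, Rchy1 at 311 ± 13.7 and Ppm1d at 235 ± 20.6 (SD, n = 2). Neighbours in that order had separate ranges except Mdm2 and Trp53inp1. In treated WT cells the order was Ccng1 at 8725 ± 858, Mdm2 at 5831 ± 908, Trp53inp1 at 3119 ± 96.0, Usp7 at 2674 ± 12.2, Mdm4 at 2327 ± 651, Ppm1d at 646 ± 69.1, Trp53 at 608 ± 61.2 and Rchy1 at 436 ± 67.9. Usp7 overlapped Mdm4 there, and Ppm1d overlapped Trp53.

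In untreated Cfp1-/- cells Ccng1 led at 4503 ± 241 normalized counts per kb, with Usp7 at 2717 ± 12.5, Mdm4 at 1788 ± 119, Trp53inp1 at 1409 ± 59.7, Trp53 at 1112 ± 60.3, Mdm2 at 1034 ± 201, Ppm1d at 362 ± 40.8 and Rchy1 at 355 ± 47.4. Trp53 overlapped Mdm2, and Ppm1d overlapped Rchy1. After treatment Ccng1 was at 9761 ± 93.9, Mdm2 at 5126 ± 308, Trp53inp1 at 3655 ± 407, Usp7 at 1786 ± 36.2, Mdm4 at 1406 ± 15.4, Ppm1d at 881 ± 66.2, Trp53 at 757 ± 121 and Rchy1 at 485 ± 31.4, and only Ppm1d and Trp53 overlapped. The 8 members occupied the same order in treated WT and treated Cfp1-/- cells.

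The balance between the related inhibitors was read within each library. The ratio of Mdm2 to Mdm4 per kb was 0.605 and 0.624 in untreated WT cells and 0.628 and 0.524 in untreated Cfp1-/- cells. It was 2.32 and 2.78 in treated WT cells and 3.83 and 3.46 in treated Cfp1-/- cells. Mdm4 thus exceeded Mdm2 in all 4 untreated libraries and Mdm2 exceeded Mdm4 in all 4 treated ones, with the treated Cfp1-/- ratios above the treated WT ratios. The ratio of Mdm2 to Trp53 per kb went from 1.51 and 1.68 to 9.93 and 9.18 in WT cells and from 1.02 and 0.835 to 6.34 and 7.30 in Cfp1-/- cells, lower in Cfp1-/- cells at either state. These ratios are given as a description and were not tested. An exact permutation test of 2 libraries against 2 could not go below p = 0.333.

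**Figure D3:**
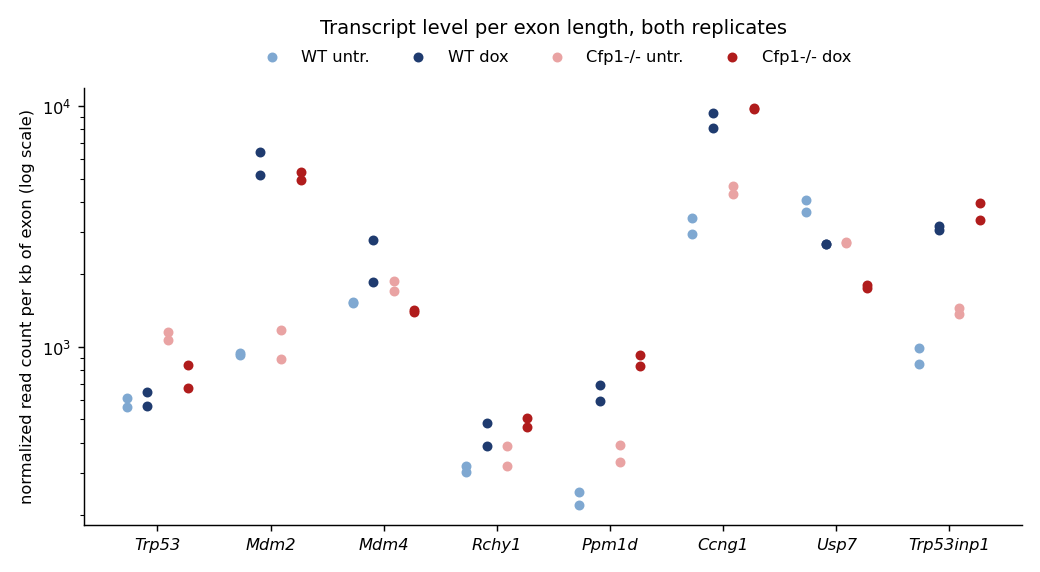
Normalized read count per kb of exon on a log scale for each member, with both biological replicates of the 4 groups as points. Ccng1 and Mdm2 are the highest treated transcripts, Usp7 is the highest untreated WT transcript at 3849 on average, and Ppm1d and Rchy1 are the lowest untreated ones.

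Whether the response to doxorubicin differed between the WT and Cfp1-/- lines was tested as the Cfp1-/- response minus the WT response. None of the 8 members passed at an adjusted p under 0.05 (0.235% of all genes did, edgeR), while 2 members, Mdm4 and Trp53, had an unadjusted p under 0.05, as did 10.6% of all genes. DESeq2's Wald test called 1 member and 216 genes in all. With the replicate number as a block edgeR called 1 member and 243 genes in all, against 37 without it. The called member was Mdm4 in both cases. The 8 estimated differences were all negative, which all 8 also were under both other scalings, while the median over all genes was 0.005. That of Rchy1 turned positive, up to 0.12, when certain single libraries were left out. All 8 values come from the same libraries, so their shared sign is not 8 separate results. For Usp7, which fell in both genotypes, a negative value is a deeper fall.

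The response of Mdm4 was lower by 0.96 on the log2 scale in Cfp1-/- cells (SE 0.248, 95% interval -1.52 to -0.41, unadjusted p = 0.00325, adjusted p = 0.206, edgeR). With the replicate block the difference was -0.94 (adjusted p = 0.0421), and with DESeq2 it was -0.96 (adjusted p = 0.0407). The lowest adjusted p, 0.0212, came with the block and without the second technical runs of both treated replicates 1. That alternative was chosen after seeing the data. Over 17 alternatives the adjusted p ranged from 0.0212 to 0.49, and the value from -1.23 to -0.65, the latter without treated WT replicate 1, whose count of 9788 was the highest of the 8. In that replicate the technical runs differed beyond sampling noise, and leaving out its second run together with that of treated Cfp1-/- replicate 1 gave -0.94. In treated cells the Cfp1-/- line held less Mdm4 than WT (log2 difference -0.70, SE 0.176, adjusted p = 0.0179), a call lost without treated WT replicate 1 (-0.39, adjusted p = 0.0913) or without either treated Cfp1-/- library (-0.71 and -0.70, adjusted p = 0.081 and 0.087), with adjusted p from 0.00152 to 0.0913 over 18 alternatives. Untreated cells differed by 0.26 (95% interval -0.13 to 0.65).

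The response of Trp53 differed by -0.61 (SE 0.21, 95% interval -1.08 to -0.14, adjusted p = 0.348), with adjusted p from 0.0427 to 0.616 over 17 alternatives. The value of 0.0427 came from the same alternative chosen after seeing the data. The remaining differences were -0.39 for Trp53inp1 (95% interval -0.82 to 0.03), -0.34 for Ccng1 (-0.76 to 0.08), -0.33 for Mdm2 (-0.86 to 0.19), -0.18 for Ppm1d (-0.66 to 0.29), -0.08 for Usp7 (-0.46 to 0.29) and -0.04 for Rchy1 (-0.56 to 0.47). All 6 intervals include 0, so that for Mdm2 they leave room for a response weaker by as much as 0.86 or stronger by 0.19 in Cfp1-/- cells.

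Between genotypes, 4 members were higher in untreated Cfp1-/- cells (17.9% of all genes) and 1 was lower (16.1%). The higher ones were Trp53, Ppm1d, Trp53inp1 and Ccng1, and the lower one was Usp7. After treatment 1 member, Ppm1d, was higher in Cfp1-/- cells (15.1% of all genes) and 2, Mdm4 and Usp7, were lower (10.8%). The median log2 difference of the 8 members was 0.39 untreated and 0.18 treated, against 0.01 and 0.02 over all genes. The untreated count in both directions was 2 of the 5 without untreated WT replicate 1, 3 without untreated Cfp1-/- replicate 1 and 3 without untreated Cfp1-/- replicate 2. The treated count in both directions was 1 of the 3 without treated WT replicate 1, 1 without treated Cfp1-/- replicate 1 and 0 without treated Cfp1-/- replicate 2. The 5 comparisons share libraries, so that a high untreated Cfp1-/- value enters both the untreated difference and the Cfp1-/- response of the same gene.

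**Figure D4:**
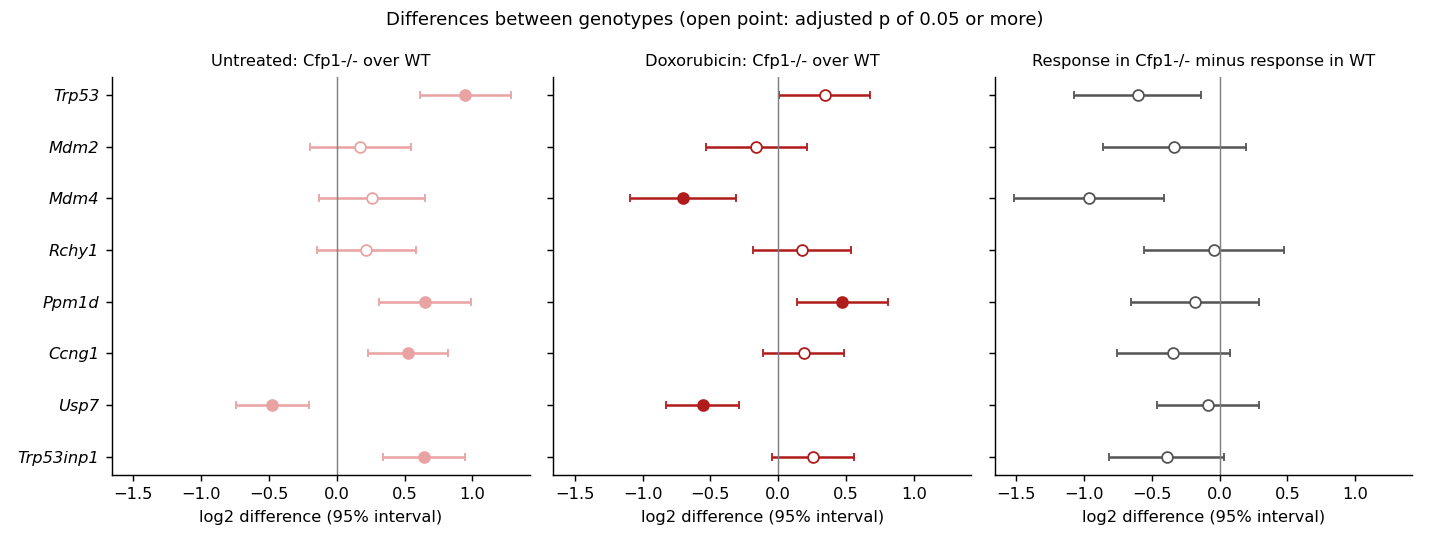
Log2 differences between genotypes for each member, untreated (left), under doxorubicin (middle) and between the responses (right), with 95% intervals from the edgeR fit, filled where the adjusted p was under 0.05. Trp53 stands at 0.95 on the left, Usp7 is left of 0 at both states, and all 8 response differences are at or below -0.04 with none filled.

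Other genes that act on p53 or Mdm2, or are paralogs of members, were read from a list of 57, all of them tested. In contrast to the members, more of them fell than rose. In WT cells 9 of 57 rose and 25 fell, which is 15.8% and 43.9% of the list. Over all genes the shares were 26.5% and 21.8%. In Cfp1-/- cells 8 rose (14.0%, against 27.8% of all genes) and 21 fell (36.8%, against 21.0%). Of those 21, Huwe1, Kat5 and Otud5 lie on chromosomes 19 or X, where the second run of treated Cfp1-/- replicate 1 had its missing counts. Without that run the Huwe1 value went from -0.56 to -0.27 (adjusted p = 0.125) and was not called, while Kat5 (-0.50) and Otud5 (-0.41) were. The list then counted 7 rises and again 21 falls, since other calls changed too. The direction of this balance within the list rested on the scaling. Total count scaling gave 13 that rose and 11 that fell in WT cells and 12 and 11 in Cfp1-/- cells. Of all 15758 genes it called 5731 higher and 1836 lower in WT cells, and 5271 and 2057 in Cfp1-/- cells. The list thus still had a smaller share of rises and a larger share of falls than all genes. Over all genes the share of calls that were rises went from 54.9% to 75.7% in WT and from 57.0% to 71.9% in Cfp1-/- cells under that scaling, and the members went from 6 rises and 1 fall to 7 and 0 in WT and from 5 and 2 to 5 and 1 in Cfp1-/- cells. The median log2 fold change of the 57 was -0.35 in WT and -0.30 in Cfp1-/- cells. Between genotypes 8 were higher (14.0%, against 17.9% of all genes) and 16 lower (28.1%, against 16.1%) in untreated Cfp1-/- cells. In treated ones 6 were higher (10.5%, against 15.1%) and 13 lower (22.8%, against 10.8%). These balances rested on the scaling too. Under total count scaling 10 were higher and 9 lower in untreated Cfp1-/- cells, against 3849 and 1610 of all genes. In treated ones that scaling gave 8 higher and 6 lower, against 2824 and 1255 of all genes. No gene of the list had a called difference in response (edgeR, against 0.235% of all genes), and 0 were called by DESeq2. At an unadjusted p under 0.05 (edgeR) there were 11 of the 57, against 10.6% of all genes. The smaller lists below hold few genes each, and their counts were not tested against the shares of all genes.

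Of the 2 paralogs of p53, Trp73 rose in both genotypes. Its normalized counts were 53.5 and 71.9 in untreated and 1991 and 1405 in treated WT cells, and 77.9 and 90.4 in untreated and 1339.9 and 1369 in treated Cfp1-/- cells, with log2 fold changes of 4.81 (SE 0.239) and 4.05 (SE 0.229), larger than that of any member. Trp63 was called in WT cells on 2 and 1 raw counts untreated and 2 and 21 treated, and was not called without treated WT replicate 2 (adjusted p = 0.603) or without untreated WT replicate 1 or 2 (adjusted p = 0.0672 and 0.0783). In Cfp1-/- cells it had 79 and 81 counts untreated and 68 and 80 treated. Among the paralogs of other members, 1 of 6 rose and 2 fell in WT cells. Trp53inp2, the relative of Trp53inp1, rose with log2 fold changes of 1.93 in WT and 1.18 in Cfp1-/- cells, and Ppm1g, a phosphatase of the Ppm1d family, fell by 0.56 and 0.75.

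Of the 5 other deubiquitinases of p53 or Mdm2, 1 rose and 2 fell in each genotype. Usp2, which removes ubiquitin from Mdm2, rose by 2.59 (SE 0.206) in WT and 2.52 (SE 0.204) in Cfp1-/- cells. Its normalized counts were 90.9 and 88.6 in untreated and 578 and 470.0 in treated WT cells. Usp10, which acts on p53, fell by 0.60 and 0.73. Of the 8 other ubiquitin ligases of p53, 1 rose and 4 fell in WT cells and 1 rose and 5 fell in Cfp1-/- cells. Trim24 fell by 1.503 and 1.39, with counts of 7809 and 7303 in untreated and 2844 and 2323 in treated WT cells. Ube4b rose by 0.70 in WT cells, and its value in Cfp1-/- cells was 0.40 (adjusted p = 0.074). The ligase that rose in Cfp1-/- cells, named after its values were seen, was Siah1a (0.44, adjusted p = 0.0436), with a WT value of -0.38 (adjusted p = 0.071).

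Of the 10 kinases of p53, 1 rose and 5 fell in WT cells, and 0 rose and 3 fell in Cfp1-/- cells. Mapk14, the stress kinase p38, rose by 0.48 in WT cells, and Csnk1a1, a casein kinase, fell by 0.76 in WT and 0.57 in Cfp1-/- cells. Of the 7 genes of p53 acetylation, 1 rose in each genotype and 3 and 4 fell. Kat8 rose by 0.77 and 0.58, and Kat2b, another acetyltransferase, fell by 1.86 and 1.33. Of the 6 genes of p53 methylation, 4 fell in each genotype and 1 rose in Cfp1-/- cells. Prmt5, an arginine methyltransferase, fell by 0.95 in WT and 0.55 in Cfp1-/- cells. The gene that rose, named after its values were seen, was the lysine methyltransferase Setd7 (1.29 in Cfp1-/- cells).

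Of the 8 binding partners of p53, 2 rose and 3 fell in WT cells, and 2 rose and 2 fell in Cfp1-/- cells. Ppp1r13l, the inhibitory member of the ASPP family, rose by 3.13 (SE 0.258) in WT and 3.16 (SE 0.265) in Cfp1-/- cells, from 73.0 and 92.8 to 842 and 566 normalized counts in WT cells. Ttc5, a cofactor of p300, fell by 1.098 and 0.61. Of the 5 binding partners of Mdm2, none rose, 2 fell in WT cells and none passed in Cfp1-/- cells. Npm1, a nucleolar protein that binds Mdm2, fell by 0.63 in WT cells, while its Cfp1-/- value was -0.36 (adjusted p = 0.108).

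**Figure D5:**
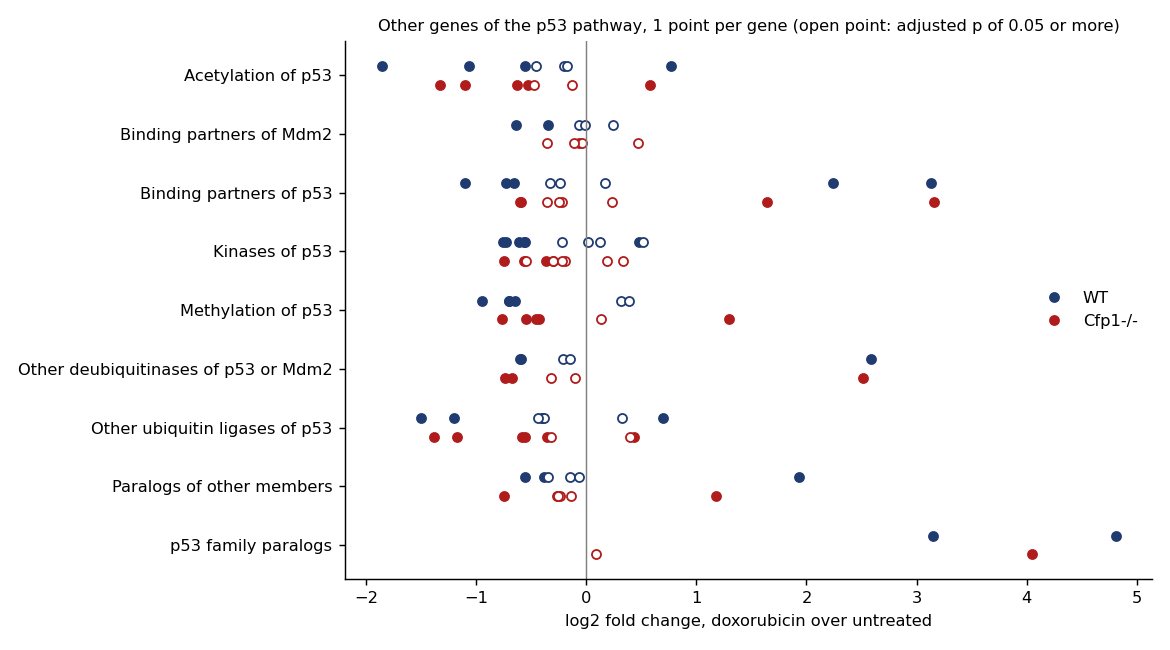
Log2 fold change with doxorubicin of the 57 other genes that act on p53 or Mdm2 or are paralogs of members. Each gene has 1 point in WT (blue) and 1 in Cfp1-/- cells (red), by the kind of action or paralogy. Points are filled where the adjusted p was under 0.05. Most points lie left of 0, 40 of 57 in WT and 42 of 57 in Cfp1-/- cells, and the few far to the right include Trp73 at 4.81 and 4.05, Ppp1r13l at 3.13 and 3.16, and Usp2 at 2.59 and 2.52.

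The profiles over the 8 libraries were compared as the root mean square difference of log2(normalized count + 1), after centring each gene on its mean, a description over libraries that share the same 4 conditions. Among the members the most alike were Ccng1 and Trp53inp1 at 0.175, Ppm1d and Trp53inp1 at 0.183, and Ppm1d and Ccng1 at 0.208, and the next pair, Mdm4 and Rchy1, stood at 0.36. Of the 15758 genes tested, the 3 most like Trp53 were Sike1 (0.0739), Aig1 (0.104) and Cog1 (0.105). Those most like Mdm2 were Usp2 (0.108), which is on the list of other deubiquitinases, Mgat5b (0.132) and Zfp385a (0.156).

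Mdm4 was nearest to Nudt17 (0.0979), Mast1 (0.108) and Lrig2 (0.124). Among the 3 genes nearest to Rchy1 were Fam54a (0.0722) and Sulf2 (0.0866). Ppm1d was nearest to Lgals8 (0.106), Arap1 (0.11) and Lrrc56 (0.116), and Ccng1 to Prcp (0.0752), 1500011H22Rik (0.106) and Sgsm3 (0.106). Usp7 was nearest to Mier2 (0.0566), E2f4 (0.0609) and Casp8ap2 (0.067), and Trp53inp1 to Efs (0.1), Slc19a2 (0.107) and Tmtc3 (0.136).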

How the data were processed

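RNA-Seq was done on 16 samples, 2 technical runs of each of 8 biological replicates. The authors mapped paired strand-specific reads to NCBIM37 (mm9) with STAR, 2.2.1 in the submitters' processing notes, and counted them with HTSeq. The deposited raw counts are whole reads per gene, and the deposited normalized signal is the total of both runs over the size factor of DESeq. Technical runs were summed, and the sums were fitted for all 4 groups with edgeR 4.0.16 (R 4.3.3), TMM scaling and the default low-count filter, which kept 15758 genes, and called at an adjusted p under 0.05. The SE is the log2 fold change over the root of F. DESeq2 1.42.0, other scalings, no filter, left-out runs and libraries, and a replicate block were alternatives. Scripts were tested on simulated data. Exon lengths came from the GENCODE vM1 annotation of NCBIM37, in which all 8 members have the coordinates of the count tables. The paper names Ensembl release 67 for its counts.

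Members, lists and rules were chosen with earlier results of these data known. Named were all members, the called gene of each list with the largest rise and fall in WT cells, any with a called response difference, and 3 genes of nearest profile per member, of which 1 is not reported here. Same-numbered replicates deviated together (correlations of 0.18 to 0.574 across the 6 pairs of groups, 12323 genes), a pairing seen in the data alone, since the labels give only the number. The main values have no block, and blocked values stand beside the results they change. Nothing says that replicates were separate cultures, so p-values measure the spread between these samples. The treatment label gives doxorubicin in mM and the protocol in µM, and the latter is used. Pseudogenes of Trp53 and Mdm4 are annotated and not used here.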

Additional observations from a re-analysis of the deposited data

Results flagged for a closer look

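The response of Mdm4 to doxorubicin differed between WT and Cfp1-/- cells by a test of the difference itself when the replicate number was a block (-0.94 on the log2 scale, Cfp1-/- minus WT, adjusted p = 0.0421, edgeR). It rose in 2 of 2 WT replicates and went down in 2 of 2 Cfp1-/- replicates, and without the block the adjusted p was 0.206. The lowest adjusted p, 0.0212, came with the block and without the second technical runs of both treated replicates 1, an alternative chosen after seeing the data. The treated WT replicate with the highest Mdm4 count is also 1 of the 2 replicates whose technical runs disagreed. Without that replicate and without the block, the difference was -0.65 (adjusted p = 0.307), and over 17 alternatives the adjusted p ranged from 0.0212 to 0.49.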

How the results depend on the processing

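Each of the 40 member log2 fold changes was recomputed under up to 18 alternatives, 712 values in all, of which 661 kept direction and side of the threshold, 36 lost their call, 9 gained one and 6 changed sign. The 6 were values near 0 after 1 library was removed. With 1 library left out, Trp53 in WT cells ranged from -0.0157 (without treated WT replicate 1) to 0.19, and total count scaling gave 0.41. Likewise, the response difference of Rchy1 ranged from -0.20 to 0.12 (0.12 without treated WT replicate 1, 0.09 without untreated Cfp1-/- replicate 1 and 0.03 without treated Cfp1-/- replicate 2). The genotype difference of Mdm2 ranged from -0.0214 (without untreated Cfp1-/- replicate 1) to 0.37 untreated and from -0.32 to 0.0012 (without treated WT replicate 1) treated. The replicate block changed 2 calls, Mdm4 in the response difference and Trp53 in the treated genotype difference, and no other member call. Members with a called response difference numbered 1 with DESeq2 (216 of all genes, against 37 without these changes) and 1 with the block (243 of all genes). They numbered 2 with the block and without the second technical runs of both treated replicates 1, an alternative chosen after seeing the data. Under it 1 gene of the 57 (Hipk2) was called too. The share of all genes called is not given for that alternative or for the left-out replicates below. Those member counts therefore cannot be set against all genes. Leaving out replicates gave 2 to 5 members for the untreated and 0 to 3 for the treated genotype difference, and 1 to 3 at the study's limits in Cfp1-/- cells, where first technical runs alone gave 1. With 2 libraries per group, the 95% intervals of the response differences reached 0.38 to 0.55 to either side, and the cause of the values that moved was not tested.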
